A study of Mus musculus with 8 samples.

Results

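Mitochondrial fatty acid oxidation enzymes are described here by 10 genes, chosen by name from the gene table of an RNA sequencing experiment: Cpt1a, Cpt2, Slc25a20, Acadm, Acadl, Acadvl, Hadha, Hadhb, Acaa2 and Eci1. Each name matched 1 of the 56748 genes in the table, and all 10 passed the filter on low values. The libraries came from 32D cells, a mouse myeloid line that grows in interleukin-3, carrying wild-type Jak2 (Jak2WT) or Jak2V617F, the activated kinase of myeloproliferative neoplasms. In each background, clones with intact glucose transporters (GLUT1/3 WT) were set beside clones in which CRISPR-Cas9 had been directed at both Slc2a1 and Slc2a3 (GLUT1/3 dKO), with 2 clones in each of the 4 groups, numbered 1 and 3 in the labels. RNA was taken from all 8 cultures after 24 h in RPMI-1640 that held 10% serum, 2 ng/ml interleukin-3, glutamine at 1 mM and glucose at 5 mM. Both genotypes were grown from single cells, so a group stands for 2 clones, and a difference between clones includes whatever set them apart before the knockout. Expression is given as FPKM, fragments scaled to the length of the gene and to the size of the library, and values for a group are listed for clone 1 and then clone 3.

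Fatty acids enter the mitochondrial matrix as acylcarnitines. Cpt1a, the carnitine palmitoyltransferase of the outer membrane, makes them and is the step that malonyl-CoA inhibits, Slc25a20 carries them across the inner membrane in exchange for carnitine, and Cpt2 turns them back into acyl-CoA. The acyl-CoA dehydrogenases then start each round of shortening, with Acadvl, Acadl and Acadm for very long, long and medium chains. Hadha and Hadhb are the alpha and beta subunits of the trifunctional protein, which completes the round for long chains, while Acaa2 is a thiolase and Eci1 an isomerase that lets unsaturated chains enter the cycle. The pathway feeds acetyl-CoA and electrons to the respiratory chain and is one of the fuels a cell can draw on when glucose uptake is low, which is the setting that loss of GLUT1 and GLUT3 addresses.

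The sequence upstream of the start is shown for the 4 genes that passed the test in a comparison below and have their own upstream region, together with the stretch between Hadha and Hadhb, which face away from each other on chromosome 5. Sequences are from GRCm39, read 5′ to 3′ on the strand given, and leave out every base that an exon in GENCODE vM39 covers, so that the Acadm stretch ends 43 bases before the start of its canonical transcript. Capitals mark an NRF1 core in Acadm, the core that HIF binds in Acadvl (as its reverse complement) and GC boxes in Slc25a20 and between Hadha and Hadhb, and Eci1 has none of the motifs in its stretch.
Acadm, chr3:153650318-153650445, reverse strand: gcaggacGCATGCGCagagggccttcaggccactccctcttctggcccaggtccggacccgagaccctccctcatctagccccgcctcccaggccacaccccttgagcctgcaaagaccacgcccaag
Acadvl, chr11:69906271-69906439, reverse strand: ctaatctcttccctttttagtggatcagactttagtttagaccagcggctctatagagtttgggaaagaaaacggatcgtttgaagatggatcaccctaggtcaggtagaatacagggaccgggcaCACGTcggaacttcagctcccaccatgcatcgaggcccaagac
Slc25a20, chr9:108539127-108539249, forward strand: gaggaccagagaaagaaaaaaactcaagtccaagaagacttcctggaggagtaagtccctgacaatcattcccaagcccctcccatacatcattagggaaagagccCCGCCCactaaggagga
Eci1, chr17:24645445-24645579, forward strand: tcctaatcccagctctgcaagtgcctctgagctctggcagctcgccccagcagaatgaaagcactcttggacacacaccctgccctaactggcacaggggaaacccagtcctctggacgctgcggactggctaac
Hadha to Hadhb, chr5:30360188-30360235, forward strand: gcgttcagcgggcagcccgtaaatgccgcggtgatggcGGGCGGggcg
In the deposited table only 85 bases separate Hadha from Hadhb, and the 48 bases shown have a GC content of 75.0%. Motifs were searched on both strands from 250 bases before to 50 bases after the start of the canonical transcript of 21770 genes. The GC box GGGCGG was found in 7 of the 10 genes and in 42.5% of all promoters, and CCAAT in 3 of the 10 and in 39.9%. Acadm held the one match among the 10 to the NRF1 core GCATGCGC, at position -163, against 3.68% of all promoters. The core ACGTG that HIF binds was present in Acadvl, at position -44, and in Acaa2, against 20.7% of promoters, and the E-box CACGTG, which contains that core, was present in 0 of the 10 against 7.81%. The extended half-site AAGGTCA of estrogen-related receptors was matched by Hadha alone, at position -125, against 4.48%, and the repeat of AGGTCA with 1 base between the copies, of the kind that PPAR and RXR bind, by 0 of the 10 against 0.0459%. Positions count back from -1, the base before the start, and a match describes letters and not binding.

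Between 16846011 and 48884329 reads per library fell on genes, and the chi-square between the 2 clones of a group was 7.88 to 34.6 per gene, above the value near 1 that sampling of reads alone would give. The log2 change of Slc2a1 in the dKO clones was -2.20 in Jak2WT (adjusted p = 0.000872) and -1.90 in Jak2V617F (adjusted p = 0.000444, limma in both). Slc2a3 was lower by 2.39 in Jak2V617F (adjusted p = 0.0115), and in Jak2WT its change of -1.71 did not pass (adjusted p = 0.0612), with 16.0 and 49.5 FPKM in the dKO clones against 97.7 and 91.9. Jak2 in the Jak2V617F clones was at 0.557 times its Jak2WT level with intact transporters and at 0.688 times with dKO, both past the threshold. Of 6 markers of myeloid identity, 5 were detected and Cd34 was listed at or near 0, and their summed level was 417 to 476 FPKM in Jak2WT GLUT1/3 WT, 290 to 379 in Jak2WT dKO, 344 to 354 in Jak2V617F GLUT1/3 WT and 138 to 147 in Jak2V617F dKO. Most of that sum was Csf2rb and Csf2rb2, near-identical receptor genes whose reads may be split between them, while Il3ra was lowest in Jak2WT GLUT1/3 WT (6.61 to 6.83 FPKM, against 7.99 to 9.38 elsewhere) and Ptprc highest in Jak2V617F GLUT1/3 WT (31.0 and 33.2 FPKM). The summed level of 9 erythroid markers was 94.0 to 112 FPKM in Jak2WT GLUT1/3 WT, 246 to 291 in Jak2WT dKO, 553 to 910 in Jak2V617F GLUT1/3 WT and 2582 to 4679 in Jak2V617F dKO, carried by the globin genes, with Alas2 near 0 in every library. Gata1, the erythroid transcription factor on the same list, went against the sum after knockout in Jak2V617F, from 58.1 and 48.7 to 41.1 and 34.0 FPKM (-0.50 on the log2 scale, limma adjusted p = 0.0246). Over the same groups 8 granulocyte and monocyte markers summed to 51.8 to 51.9, 34.1 to 34.8, 25.3 to 28.1 and 9.15 to 17.2 FPKM, with Mpo and Elane near 0. Only 2 of these 8 reached 1 FPKM, and the fall was that of Cebpe, at 41.9 to 44.2, 28.1 to 31.5, 16.3 to 18.0 and 4.20 to 6.80 FPKM, while Prtn3 lay between 3.11 and 10.2 with no such order. The 6 mast cell and basophil markers summed to 121 to 222 FPKM over all libraries, with Kit listed at 0, from which no absence is read, and Gata2 between 115.5 and 163.3. Among them Cpa3, the mast cell carboxypeptidase, was at 50.8 to 100.5 FPKM in the Jak2WT clones and at 0 to 1.67 in the Jak2V617F clones. It was lower in both comparisons of the backgrounds (limma adjusted p = 0.000438 and 0.000612). Gata2 went the other way among GLUT1/3 WT clones, with 123.3 and 123.8 FPKM in Jak2WT and 163.3 and 155.7 in Jak2V617F, a difference not called. Its values overlapped among dKO clones, and Ms4a2, Fcer1a and Mcpt8 stayed at or under 0.351 FPKM. The level of Cpa3 did not pass the test after knockout, and the 6 lymphoid markers stayed at or under 0.708. The erythroid sum did not overlap between any of the 4 groups, nor did the granulocyte and monocyte sum, and their part in the results below was not tested, nor was that of Cpa3 or of the myeloid markers. In bulk RNA, fewer cells of a type and less RNA per cell cannot be told apart.

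The fitted differences of the fatty acid oxidation genes lay between 0.68 lower and 0.46 higher on the log2 scale, and 6 of 50, those of 10 genes in 5 comparisons, passed the threshold. Of all genes, 4.72% to 16.2% were called in each direction of a comparison, and these shares are given below beside the counts. The 6 calls were no excess over them. Loss of GLUT1 and GLUT3 was followed by a lower level of Acadm in Jak2V617F, a call that every alternative analysis also made. In Jak2WT loss of the transporters called 0 of 10 genes, against 7.62% of all genes higher and 6.06% lower. It also called 0 with median ratio scaling of the libraries. With every library scaled to the same summed FPKM 4 of 10 were lower, against 11.7% of all genes. With voom on the recovered reads 4 of 10 were lower, against 13.5%. Against Jak2WT, Jak2V617F was called higher for Acadvl and Eci1 and lower for Hadhb among GLUT1/3 WT clones. Among dKO clones Slc25a20 was called higher and Acadm lower. All genes were called at similar shares, 15.3% higher and 14.9% lower among GLUT1/3 WT clones and 7.12% and 9.96% among dKO clones. Each of these calls was lost in some alternatives given below, and 0 of those among dKO clones remained with only the groups compared. The summed FPKM of the 10 genes was 187 ± 6.33 in Jak2WT GLUT1/3 WT, 165 ± 3.19 in Jak2WT dKO, 186 ± 19.0 in Jak2V617F GLUT1/3 WT and 170 ± 8.19 in Jak2V617F dKO (SD, n = 2). As a share of all FPKM in a library these genes made up 0.0523% to 0.0657%.

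**Figure D1:**
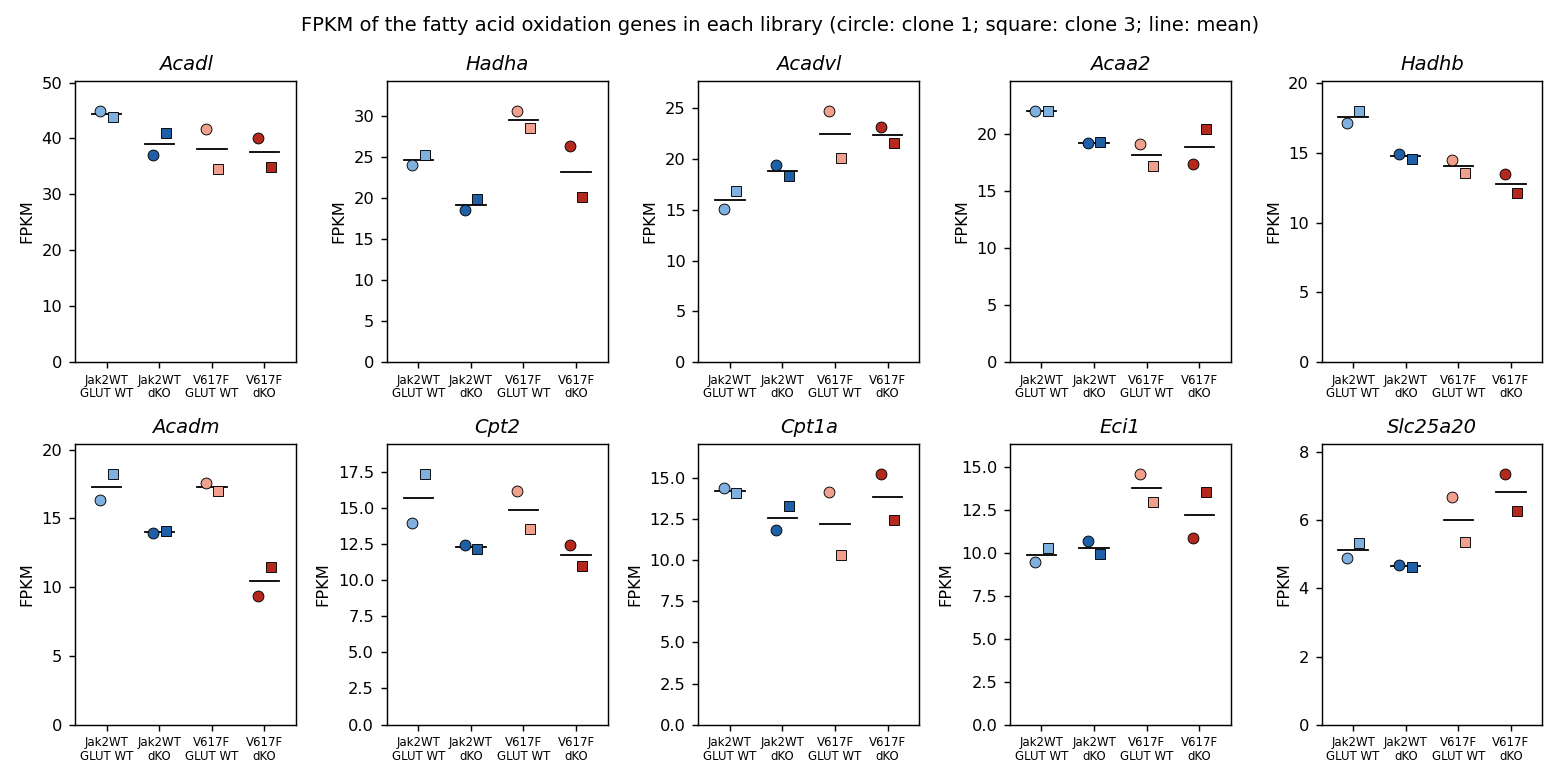
FPKM (vertical axes, each from 0) of the 10 genes in the 4 groups, with a circle for clone 1, a square for clone 3 and a line for the mean of 2 clones. Acadm sits at 9.34 and 11.5 FPKM in the Jak2V617F dKO clones, below all 6 other libraries, while Acadl stays between 34.5 and 44.9 throughout.

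Acadl had the highest FPKM of the 10 in every library, from 34.5 to 44.9, and Slc25a20 the lowest, from 4.62 to 7.37. Neither range overlapped that of any other gene among the 10. The genes between them formed an order with overlapping neighbours. Over the 8 libraries Hadha had a mean of 24.1 FPKM, Acadvl 19.9, Acaa2 19.5, Hadhb 14.8, Acadm 14.8, Cpt2 13.6, Cpt1a 13.2 and Eci1 11.5, and the range of each overlapped that of the next. Acadm varied most across libraries, with a coefficient of variation of 21.2%, and Acaa2 least, with 9.33%. All 10 rested on many reads, since the smallest number for any gene in any library was 379, for Eci1.

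The order of levels depended on the gene length behind FPKM. The table lists 8730 bases for Hadha, 6595 for Hadhb and 4844 for Slc25a20, which is 2.16, 3.24 and 2.72 times the length of their canonical transcripts, whereas the listed length of Acadl is 0.803 times that of its transcript. An alternative chosen after seeing the data divided all reads counted on a gene by the kilobases of its canonical transcript, scaled to the reads of each library. It put Hadha first at 52.6 and Hadhb second at 48.6, ahead of Acadl at 32.3 and Acadm at 28.3. The reads include any that fell outside the canonical transcript, which can raise genes with a long listed length. Slc25a20 rose to 15.5, next to Cpt1a at 15.5, and Cpt2 was last at 13.8. The fold changes between groups do not depend on this length apart from the pseudocount.

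**Figure D2:**
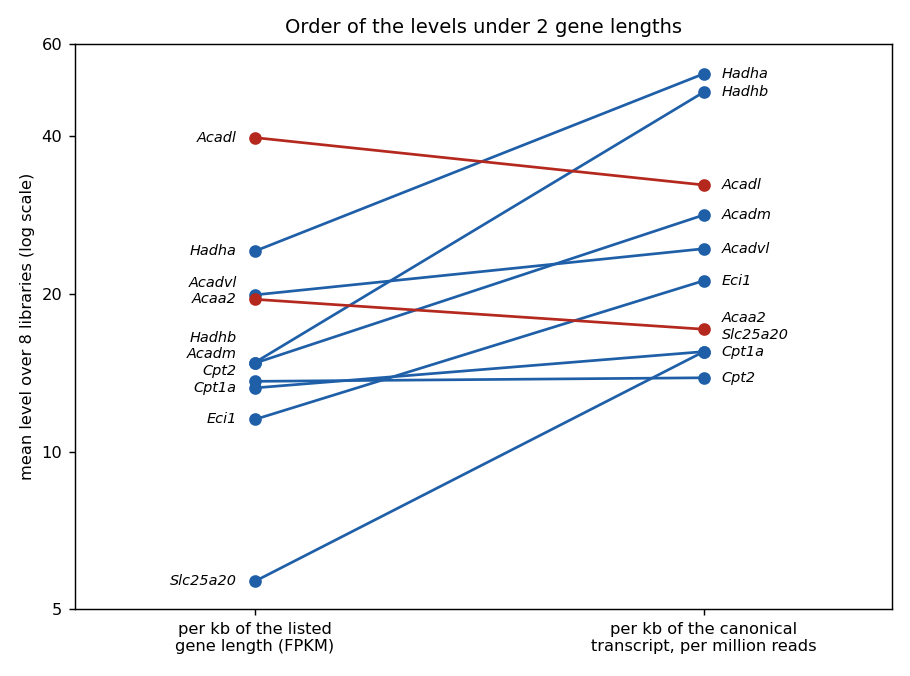
Mean level over 8 libraries (log axis) of each gene per kilobase of the listed gene length (left) and per kilobase of the canonical transcript (right), with blue lines for genes whose level is higher on the right. Both use all reads counted on the gene. Hadha and Hadhb go from 24.1 and 14.8 to 52.6 and 48.6, above Acadl at 32.3.

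Differences between groups were tested with limma on log2(FPKM + 1), and adjusted p-values cover all 11818 genes tested. Knockout in Jak2WT called 0 of 10 genes higher and 0 lower, against 7.62% of all genes higher and 6.06% lower, while 4 of the 10 reached an unadjusted p under 0.05. The 10 genes had a median log2 change of -0.18 with 8 of 10 below 0, and all genes tested a median of 0.0082. Knockout in Jak2V617F called 1 of 10 lower and 0 higher, against 16.2% and 13.7% of all genes, with a median of -0.072 beside -0.019 for all genes. Jak2V617F against Jak2WT among GLUT1/3 WT clones called 2 of 10 higher, against 15.3% of all genes, and 1 lower, against 14.9%. Among dKO clones the same comparison called 1 of 10 higher, against 7.12%, and 1 lower, against 9.96%. The interaction, the difference between the effects of knockout in the 2 backgrounds, called 0 of 10 in either direction, against 4.72% of genes higher and 5.91% lower, and 1 of the 10 had an unadjusted p under 0.05. Voom on the recovered reads called 4 of 10 lower after knockout in Jak2WT, against 13.5% of all genes lower by voom, and 0 of 10 for the interaction, against 11.3% higher and 4.86% lower. With 10 genes, none of the counts by limma on FPKM as deposited stood more than 1 gene above the share of all genes. The 4 genes that voom called lower after knockout in Jak2WT were Cpt2, Acadm, Hadha and Hadhb, and the same 4 were called with every library scaled to the same summed FPKM, at -0.42, -0.38, -0.44 and -0.33, where 11.7% of all genes were called lower and the median of all genes moved to -0.074. A two-sided exact permutation test of a gene over 2 and 2 clones cannot go below p = 0.33, and the calls depend on the spread that limma pools over groups and genes.

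The balance of higher and lower calls over all genes moved with the scaling of the libraries. Knockout in Jak2WT gave 901 higher and 716 lower genes with FPKM as deposited, and 706 and 1378 with every library scaled to the same summed FPKM. Knockout in Jak2V617F gave 1614 and 1919, then 2192 and 1452. Jak2V617F against Jak2WT among GLUT1/3 WT clones gave 1812 and 1765, then 1223 and 2930, and the interaction 558 and 698, then 1177 and 394. The same scaling placed the median of all genes at -0.12 on the log2 scale for Jak2V617F against Jak2WT among GLUT1/3 WT clones and at 0.12 for the interaction.

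**Figure D3:**
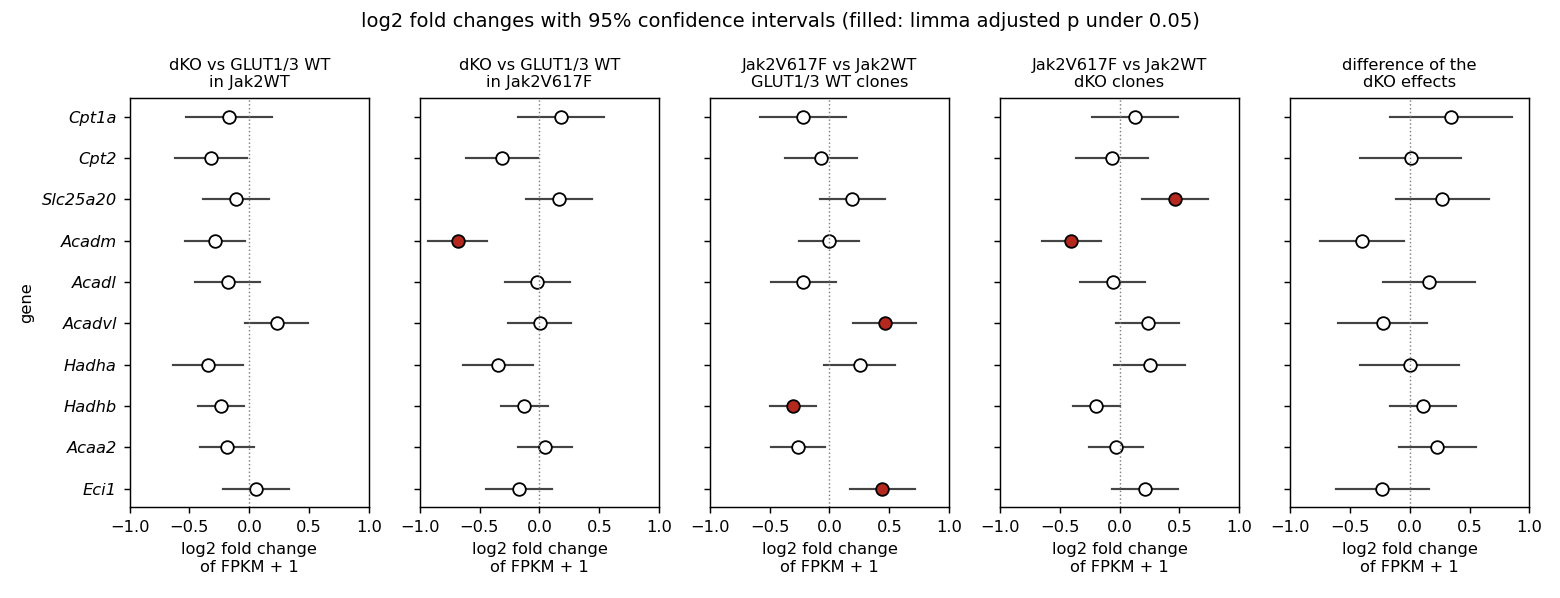
Fitted log2 fold change of FPKM + 1 (horizontal axes) for each gene in the 5 comparisons, with lines for 95% confidence intervals and filled points for an adjusted p under 0.05. Acadm after knockout in Jak2V617F, at -0.68, lies farthest from 0, and no point of the Jak2WT knockout or of the interaction is filled.

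Among the carnitine shuttle genes, Cpt1a (chromosome 19, 3372334 to 3435733, forward strand) was at 14.4 and 14.1 FPKM in Jak2WT GLUT1/3 WT, 11.9 and 13.3 in Jak2WT dKO, 14.2 and 10.3 in Jak2V617F GLUT1/3 WT and 15.3 and 12.5 in Jak2V617F dKO. The groups overlapped in Jak2V617F, and in Jak2WT the dKO clones were the lower pair. Its log2 change after knockout was -0.17 in Jak2WT (95% confidence interval -0.53 to 0.19) and 0.18 in Jak2V617F (-0.18 to 0.54), and neither passed the test. The direction in Jak2V617F rested on clone 3 of Jak2V617F GLUT1/3 WT, without which the value was -0.033.

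Cpt2 (chromosome 4, 107761178 to 107780807, reverse strand) was at 14.0 and 17.4 FPKM in Jak2WT GLUT1/3 WT, 12.4 and 12.1 in Jak2WT dKO, 16.2 and 13.5 in Jak2V617F GLUT1/3 WT and 12.4 and 11.0 in Jak2V617F dKO. All 4 dKO clones lay below all 4 GLUT1/3 WT clones, a separation by genotype and not by background. The log2 change was -0.32 in Jak2WT (SE 0.13, limma adjusted p = 0.133) and -0.31 in Jak2V617F (SE 0.13, adjusted p = 0.104), so neither was called, and the interaction was 0.0086.

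Slc25a20, the carnitine-acylcarnitine carrier (chromosome 9, 108539287 to 108561840, forward strand), had 4.91 and 5.33 FPKM in Jak2WT GLUT1/3 WT, 4.70 and 4.62 in Jak2WT dKO, 6.68 and 5.35 in Jak2V617F GLUT1/3 WT and 7.37 and 6.29 in Jak2V617F dKO. Every Jak2V617F library was above every Jak2WT library. It rose in Jak2V617F against Jak2WT among dKO clones by 0.46 on the log2 scale (SE 0.12, limma adjusted p = 0.0358), 46.6% in mean FPKM, and its difference of 0.19 among GLUT1/3 WT clones did not pass (adjusted p = 0.253). The call was lost when the fit held only the groups compared (adjusted p = 0.0663) and with no filter on low values (0.0979). It was also lost without either Jak2WT dKO clone (adjusted p = 0.142 and 0.138), either Jak2WT GLUT1/3 WT clone (0.0638 and 0.0648) or clone 1 of Jak2V617F dKO (0.141). The gap between the backgrounds was narrow, with 5.33 FPKM as the highest Jak2WT value and 5.35 as the lowest of Jak2V617F.

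Acadvl (chromosome 11, 69901009 to 69906237, reverse strand) had 15.1 and 16.8 FPKM in Jak2WT GLUT1/3 WT, 19.4 and 18.3 in Jak2WT dKO, 24.7 and 20.2 in Jak2V617F GLUT1/3 WT and 23.1 and 21.6 in Jak2V617F dKO. The 2 Jak2WT GLUT1/3 WT clones were lowest and the 4 Jak2V617F clones highest, with no overlap between the backgrounds. Among GLUT1/3 WT clones it was 40.4% higher in Jak2V617F, or 0.46 on the log2 scale (SE 0.11, limma adjusted p = 0.0197). The adjusted p was 0.119 without clone 1 and 0.0569 without clone 3 of Jak2WT GLUT1/3 WT, 0.0843 without clone 1 of Jak2V617F GLUT1/3 WT and 0.0554 with no filter on low values. Knockout left a difference of 0.23 in Jak2WT (adjusted p = 0.211) and of 0.0013 in Jak2V617F. Acadvl overlaps Dvl2 on the opposite strand over 2119 bases, Dvl2 had a mean of 4.46 FPKM, and 23.9% of the 50-base stretches of the Acadvl transcript also occur in Dvl2 transcripts. Since no strand setting is stated for the counting, reads in that overlap could have been shared.

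Acadl, for long chains (chromosome 1, 66869998 to 66902436, reverse strand), was at 44.9 and 43.8 FPKM in Jak2WT GLUT1/3 WT, 37.1 and 41.0 in Jak2WT dKO, 41.8 and 34.5 in Jak2V617F GLUT1/3 WT and 40.1 and 35.0 in Jak2V617F dKO. The Jak2WT GLUT1/3 WT clones were above the other 6 libraries, which overlapped each other. None of the 5 comparisons called it with FPKM as deposited, and the fitted differences ran from -0.22 for Jak2V617F among GLUT1/3 WT clones (SE 0.12, limma adjusted p = 0.189) to 0.16 for the interaction (adjusted p = 0.545). After knockout in Jak2V617F the value was -0.019 (95% confidence interval -0.29 to 0.25), and its sign changed under other scalings. The first of these was called with libraries scaled to the same summed FPKM (-0.37, adjusted p = 0.0287) and with voom (-0.34, adjusted p = 0.0308).

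Acadm, the medium-chain dehydrogenase (chromosome 3, 153627994 to 153650269, reverse strand), was at 16.4 and 18.3 FPKM in Jak2WT GLUT1/3 WT, 13.9 and 14.1 in Jak2WT dKO, 17.6 and 17.0 in Jak2V617F GLUT1/3 WT and 9.34 and 11.5 in Jak2V617F dKO. Both genotypes separated in both backgrounds, and the GLUT1/3 WT groups had nearly the same mean, 17.3 ± 1.33 and 17.3 ± 0.415 (SD, n = 2). In Jak2V617F the mean fell by 39.6% after knockout, or by 0.68 on the log2 scale (SE 0.11, limma adjusted p = 0.00396). In Jak2WT the change was -0.28 (SE 0.11, adjusted p = 0.118). The interaction of -0.40 had an unadjusted p of 0.0316 and an adjusted p of 0.128, so the decrease was not shown to differ between backgrounds, although without clone 3 of Jak2V617F dKO it was called (adjusted p = 0.0459). Among dKO clones Acadm was 25.6% lower in Jak2V617F than in Jak2WT, at -0.40 (SE 0.11, adjusted p = 0.0419). That comparison uses the same 2 Jak2V617F dKO clones, so the 2 calls are not separate evidence, and the second was called in 7 of 17 alternatives against 17 of 17 for the first. Without any one library other than clone 3 of Jak2V617F dKO its adjusted p was above the threshold, from 0.0588 to 0.160.

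Hadha (chromosome 5, 30323302 to 30360160, reverse strand), the alpha subunit of the trifunctional protein, was at 24.0 and 25.3 FPKM in Jak2WT GLUT1/3 WT, 18.5 and 19.9 in Jak2WT dKO, 30.6 and 28.5 in Jak2V617F GLUT1/3 WT and 26.3 and 20.1 in Jak2V617F dKO. Within each background the dKO clones had the lower values, with no overlap. The log2 change after knockout was -0.35 in Jak2WT (SE 0.13, limma adjusted p = 0.110) and also -0.35 in Jak2V617F (SE 0.13, adjusted p = 0.0759), and neither was called. The 2 Jak2V617F dKO clones were far apart, so that the change was -0.53 without clone 1 (adjusted p = 0.0138) and -0.16 without clone 3 (adjusted p = 0.273). The change in Jak2WT was called when either of these clones was left out (adjusted p = 0.0352 and 0.0353) or only the groups compared were fitted (0.0376), and without clone 3 Hadha was called 0.44 higher in Jak2V617F than in Jak2WT among dKO clones (adjusted p = 0.0299). In GENCODE vM39, 44.5% of the 50-base stretches of the Hadha transcript also occur in transcripts of Garem2, a gene on the opposite strand listed at a mean of 0.0082 FPKM, and 5.24% in those of Hadhb, while in the deposited table Hadha and Garem2 overlap by 75 bases. How the counting treated reads in these stretches is not stated, so Hadha is uncertain in that respect.

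Hadhb (chromosome 5, 30360246 to 30389591, forward strand), the beta subunit, was at 17.1 and 18.0 FPKM in Jak2WT GLUT1/3 WT, 15.0 and 14.6 in Jak2WT dKO, 14.5 and 13.6 in Jak2V617F GLUT1/3 WT and 13.5 and 12.1 in Jak2V617F dKO. The 4 groups formed a descending order without overlap. Among GLUT1/3 WT clones it was 20.1% lower in Jak2V617F, at -0.30 on the log2 scale (SE 0.083, limma adjusted p = 0.0298), and the changes after knockout of -0.24 in Jak2WT (adjusted p = 0.0992) and -0.13 in Jak2V617F (adjusted p = 0.286) did not pass. Leaving out any one of the Jak2WT libraries or of the Jak2V617F GLUT1/3 WT libraries raised the adjusted p of the first to between 0.0536 and 0.164. Hadhb is uncertain as a gene-level value as well, since 61.9% of the 50-base stretches of its transcript also occur in the processed pseudogene Hadhb-ps, listed at a mean of 18.7 FPKM, with 24.1% to 31.2% as many reads as Hadhb. Adding the reads of the pseudogene to Hadhb, an alternative chosen after seeing the data, kept the number of genes called in all 5 comparisons.

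Because the 2 subunits form one complex, their ratio was taken within each library as a description without a test. Hadha over Hadhb in FPKM was 1.40 and 1.40 in Jak2WT GLUT1/3 WT, 1.23 and 1.37 in Jak2WT dKO, 2.11 and 2.09 in Jak2V617F GLUT1/3 WT and 1.95 and 1.66 in Jak2V617F dKO. All Jak2V617F clones had a higher ratio than all Jak2WT clones. With the pseudogene reads added to Hadhb the ratios became 1.09 and 1.13, 0.983 and 1.08, 1.61 and 1.63, and 1.57 and 1.28 in the same order, and the backgrounds still did not overlap. Acadm over Acadl was 0.365 and 0.417, 0.375 and 0.344, 0.420 and 0.492, and 0.233 and 0.329, lowest in the Jak2V617F dKO clones. Acadvl over Acadl rose from 0.337 and 0.385 in Jak2WT GLUT1/3 WT to 0.522 and 0.447 in Jak2WT dKO, and was 0.592, 0.585, 0.578 and 0.617 in the Jak2V617F clones. Cpt1a over Cpt2 was 1.03 and 0.813, 0.958 and 1.10, 0.876 and 0.763, and 1.23 and 1.13, with separated groups in Jak2V617F and overlapping ones in Jak2WT.

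**Figure D4:**
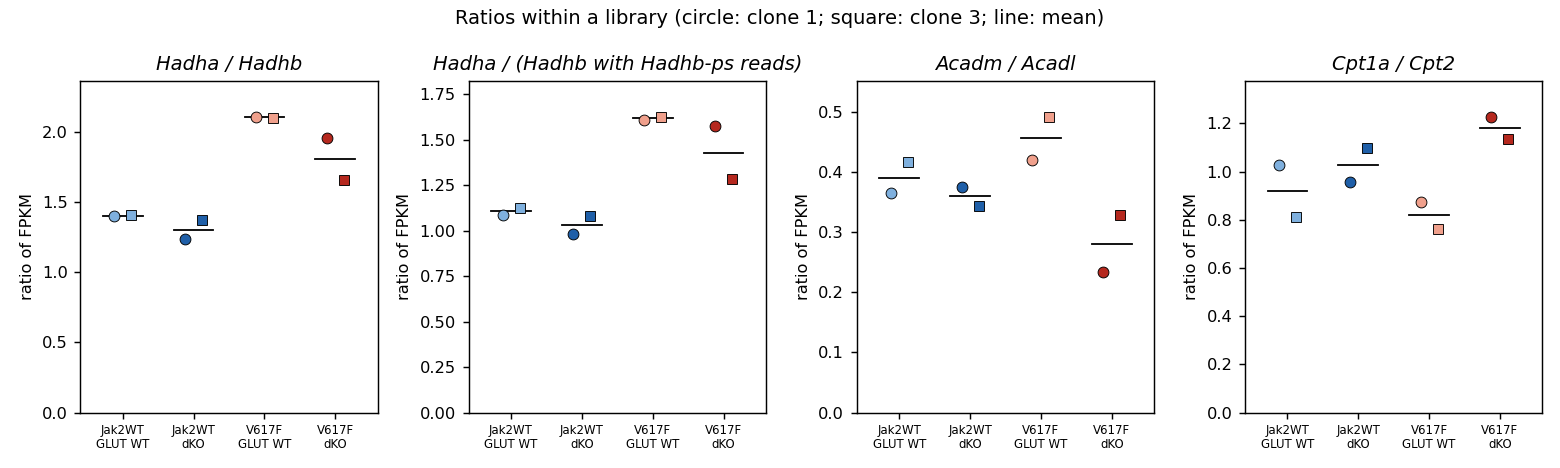
Ratios of FPKM within a library (vertical axes, each from 0) for 3 gene pairs, with Hadha over Hadhb also after adding the reads of the pseudogene Hadhb-ps, by group, with a circle for clone 1, a square for clone 3 and a line for the mean. Hadha over Hadhb is 1.23 to 1.40 in the Jak2WT clones and 1.66 to 2.11 in the Jak2V617F clones.

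Acaa2, the thiolase that releases acetyl-CoA (chromosome 18, 74912268 to 74939279, forward strand), was at 22.0 and 21.9 FPKM in Jak2WT GLUT1/3 WT, 19.1 and 19.2 in Jak2WT dKO, 19.1 and 17.2 in Jak2V617F GLUT1/3 WT and 17.3 and 20.4 in Jak2V617F dKO. Only the Jak2WT GLUT1/3 WT clones stood apart, above the other 6. No comparison called it with FPKM as deposited. Its lowest adjusted p by limma was 0.0791, for a difference of -0.26 (SE 0.097) between Jak2V617F and Jak2WT among GLUT1/3 WT clones. That difference was called with the same summed FPKM (-0.41, adjusted p = 0.0129), with voom (-0.39, adjusted p = 0.0259) and without either Jak2V617F dKO clone (adjusted p = 0.0426 for both).

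Eci1 (chromosome 17, 24645615 to 24658322, forward strand) was at 9.45 and 10.3 FPKM in Jak2WT GLUT1/3 WT, 10.6 and 9.93 in Jak2WT dKO, 14.6 and 12.9 in Jak2V617F GLUT1/3 WT and 10.8 and 13.5 in Jak2V617F dKO. All Jak2V617F clones were above all Jak2WT clones, and knockout did not separate the groups in either background. Among GLUT1/3 WT clones it was 39.6% higher in Jak2V617F, at 0.44 on the log2 scale (SE 0.12, limma adjusted p = 0.0272). The call was lost with no filter on low values (adjusted p = 0.0746), with the libraries scaled to the same summed FPKM (0.30, adjusted p = 0.0653) and with voom on the recovered reads (0.38, adjusted p = 0.0569). It was also lost without clone 1 (adjusted p = 0.139) or clone 3 (0.0819) of Jak2WT GLUT1/3 WT, or clone 1 of Jak2V617F GLUT1/3 WT (0.126).

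The other genes of fatty acid metabolism comprised 54 genes in 8 lists, of which 39 passed the filter. Knockout in Jak2V617F called 14 of the 39 lower, against 16.2% of all genes, and 1 higher, against 13.7%, with a median log2 change of -0.23. Knockout in Jak2WT called 9 lower, against 6.06%, and 1 higher, against 7.62%, with a median of -0.17. These counts moved with the libraries used, from 6 to 13 lower in Jak2V617F and from 0 to 9 in Jak2WT when 1 library was left out, and a fit of only the groups compared called 4 lower in Jak2V617F. With no filter on low values 9 were lower in Jak2V617F, and 2 lower and 0 higher in Jak2WT. The number lower in Jak2V617F was 6 without clone 1 and 11 without clone 3 of the GLUT1/3 WT group, 8 without clone 1 and 12 without clone 3 of the dKO group, and 9 without either Jak2WT GLUT1/3 WT clone. The number lower in Jak2WT was 0 without either GLUT1/3 WT clone, 1 without clone 1 of dKO and 0 without clone 3.

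Short-chain and auxiliary mitochondrial enzymes supplied 6 of the 14 genes called lower after knockout in Jak2V617F, out of 9 tested, against 16.2% of all genes. In Jak2WT 1 of the 9 was called lower, against 6.06% of all genes. The interaction called 0 of the 9, so the changes were not shown to differ between backgrounds. The crotonase Echs1, which hydrates enoyl-CoA, was at 7.02 and 6.66 FPKM in Jak2V617F GLUT1/3 WT and at 4.17 and 4.45 in dKO, and it fell by 0.56 on the log2 scale (limma adjusted p = 0.00289). Decr1, a reductase for unsaturated chains, went from 11.7 and 11.6 to 7.68 and 6.77 FPKM, a change of -0.62 (adjusted p = 0.00336). Acads, the short-chain dehydrogenase, was called in both backgrounds, at -0.34 in Jak2WT (adjusted p = 0.0379) and -0.33 in Jak2V617F (adjusted p = 0.0234). Acadsb, Hsd17b10 and Eci2 were the others, at -0.46, -0.75 and -0.59 in Jak2V617F. Hadh, the short-chain hydroxyacyl-CoA dehydrogenase, is listed at 0 in all 8 libraries, and no value is read from that.

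In the electron transfer list, Etfa and Etfdh were called lower after knockout in Jak2V617F, at -0.35 and -0.48, and Etfb, at -0.20, was not. In the uptake and activation list of 7 tested genes, the acyl-CoA synthetase Acsl3 was lower in both backgrounds (-0.65 and -0.55 for Jak2WT and Jak2V617F), and the fatty acid binding protein Fabp5 was higher in Jak2V617F (0.41, limma adjusted p = 0.0422) and at -0.040 in Jak2WT. The call of Fabp5 was lost with only the groups compared, when clone numbers were blocked, and without any one Jak2WT library, clone 3 of Jak2V617F GLUT1/3 WT or clone 3 of Jak2V617F dKO. Acsl4 was lower in Jak2V617F (-0.35) and at -0.27 in Jak2WT (limma adjusted p = 0.0607), and the transporter Slc27a4 was lower in Jak2WT (-0.45) and at -0.29 in Jak2V617F (adjusted p = 0.0634). The carnitine acyltransferases Crat and Crot were called lower in Jak2WT, at -0.46 and -0.38, with -0.28 and -0.034 in Jak2V617F, and their differences between backgrounds were not called. Acacb, a source of the malonyl-CoA that inhibits Cpt1, was called higher in Jak2WT (0.52), a call lost without any one of the 4 Jak2WT libraries and with no filter on low values, and was at 0.12 in Jak2V617F without passing.

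Among the regulators, the nuclear receptor Ppard was lower after knockout in both backgrounds, at -0.59 in Jak2WT and -0.43 in Jak2V617F, and Esrra, an activator of oxidative genes, was lower in Jak2V617F (-0.47, limma adjusted p = 0.00679) and at -0.14 in Jak2WT (adjusted p = 0.312). Ppara and Pparg are listed at 0 in every library, and Rxra and Ppargc1a at or near 0, and as for Hadh no absence of expression is read from these. Plin2, a lipid droplet coat protein whose gene PPARs activate, was at 12.6 and 13.0 FPKM in Jak2WT GLUT1/3 WT, 8.44 and 7.22 in Jak2WT dKO, 13.9 and 11.5 in Jak2V617F GLUT1/3 WT and 7.40 and 7.43 in Jak2V617F dKO. It was lower in both backgrounds, at -0.65 (adjusted p = 0.0127) and -0.70 (adjusted p = 0.00382), while the thioesterase Acot2 was called lower in Jak2WT, at -0.49, and was at -0.091 in Jak2V617F, a difference between backgrounds that was not called (adjusted p = 0.0658). In the peroxisomal list 1 of 6 tested genes was called lower in each background, in Jak2V617F the acyl-CoA transporter Abcd3 (-0.74, with -0.29 in Jak2WT).

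**Figure D5:**
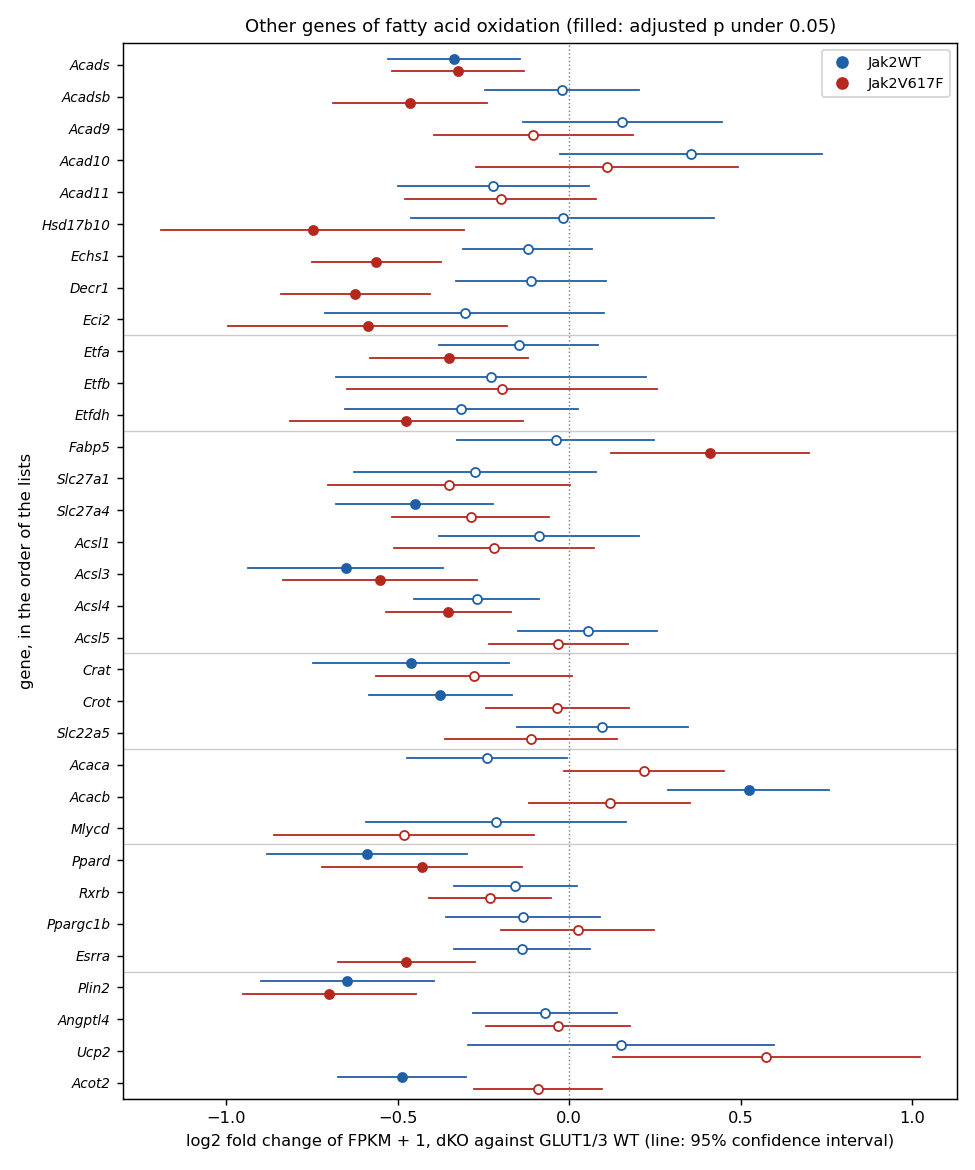
Fitted log2 fold change of FPKM + 1 after knockout (horizontal axis) of 33 of the 39 other fatty acid genes tested, without the peroxisomal list, blue for Jak2WT and red for Jak2V617F, with lines for 95% confidence intervals, filled points for an adjusted p under 0.05 and grey lines between lists. The list of short-chain and auxiliary enzymes holds 6 filled red points of 9, Echs1 at -0.56 and Decr1 at -0.62 among them. Of all genes 16.2% were called lower in Jak2V617F, and the interaction called 0 of these 9.

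Jak2V617F against Jak2WT called 4 of the 39 genes higher and 7 lower among GLUT1/3 WT clones, and 2 higher and 3 lower among dKO clones. These counts were near the shares of all genes, 15.3% higher and 14.9% lower among GLUT1/3 WT clones and 7.12% and 9.96% among dKO clones. Among GLUT1/3 WT clones the counts became 2 higher and 13 lower with the same summed FPKM, where 1223 of all genes were called higher and 2930 lower. With voom they became 3 and 11, where 1397 of all genes were called higher and 2659 lower. Leaving out 1 library gave 2 to 5 higher and 2 to 8 lower there, with 2 higher and 3 or fewer lower without any one Jak2WT library or clone 1 of Jak2V617F GLUT1/3 WT, and 3 lower without clone 3 of the latter. Among dKO clones 0 were called higher without any one Jak2WT library or clone 1 of Jak2V617F dKO, 1 without clone 3 of Jak2V617F dKO, and 0 with only the groups compared, while 2 to 5 were called lower. With voom 4 were called higher and 4 lower among dKO clones, where 1351 of all genes were called higher and 1336 lower. Hsd17b10 was 1.11 higher on the log2 scale among GLUT1/3 WT clones (limma adjusted p = 0.00539) and Decr1 0.64 higher (adjusted p = 0.00311), together with Etfa (0.32) and Acad11 (0.41). Acadsb, Echs1 and Acsl3 were called lower in Jak2V617F among both kinds of clones, at -0.33, -0.27 and -0.67 among GLUT1/3 WT clones and at -0.77, -0.71 and -0.57 among dKO clones. Fabp5, Acaca, Ppard and Ppargc1b were lower among GLUT1/3 WT clones, and Acad11 was higher among dKO clones. The interaction called 0 of the 39 in the main limma fit, with 12 at an unadjusted p under 0.05. Echs1 and Decr1 were nearest the threshold, at -0.44 and -0.51 (limma adjusted p = 0.0504 for both). The interaction called 2 lower with a mean FPKM of at least 1, 1 lower with a pseudocount of 0.1 and 1 higher with no filter on low values. With libraries scaled to the same summed FPKM it called 5 higher, against 9.96% of all genes, and voom called 4, against 11.3%, so both were near the share of all genes.

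Across the 8 libraries the 10 genes did not move as one group. Of 45 pairs, 29 had a positive Pearson correlation of log2(FPKM + 1) and 16 a negative one, with a median of 0.29. The highest was 0.81, between Cpt1a and Acadl, followed by 0.80 between Acadl and Hadhb and 0.78 between Acadvl and Eci1, and the lowest was -0.74, between Acadvl and Hadhb. These values describe 8 libraries from 4 groups that share group differences and scaling. Among the 11808 other genes tested, the pattern of Acadm was most like those of Tbl1xr1 (r = 0.993) and of the peroxisomal transporter Abcd3 (r = 0.991). The pattern of Acadl was most like that of mt-Co2 (r = 0.961), the mitochondrial gene for a subunit of cytochrome c oxidase, and then that of Cox15 (r = 0.942), which acts in heme A synthesis for the same enzyme. The nearest gene was Gm9727 for Cpt1a (r = 0.940), Qdpr for Cpt2 (r = 0.985), Dpf3 for Slc25a20 (r = 0.984) and Bag1 for Acadvl (r = 0.982). For Hadha it was Katnal1 (r = 0.983), for Hadhb Msl1 (r = 0.992), for Acaa2 Rad51d (r = 0.974) and for Eci1 S100a13 (r = 0.984).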

How the data were processed

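RNA of 8 clones of 32D cells was sequenced from polyA libraries. The deposited FPKM values were made by the authors, whose processing notes name featureCounts 2.0.6 and HISAT2 2.2.1, after fastp 1.0.1, with mm39 (GRCm39). The annotation version, strand setting and library total behind FPKM are not given in the sources used here. All values above 0 times gene length were whole multiples of one step per library (100%, tolerance 0.01), which gave the reads per gene. The 11818 genes that reached 1 FPKM in 2 or more libraries were tested on log2(FPKM + 1) with R 4.3.3 and limma 3.58.1, so fold changes of low genes are understated. One mean was fitted for each of the 4 groups, with the intensity trend, 4 residual and 3.34 prior degrees of freedom and two-sided p-values adjusted by Benjamini-Hochberg over all genes tested (threshold 0.05). The 10 genes and the other lists were chosen with earlier results of these data known. Genes named are these 10, the transporters and Jak2, any list member, and the genes whose pattern over libraries is nearest to each of the 10. Shared 50-base stretches, transcripts and motifs came from GENCODE vM39 and GRCm39, with Python 3.11.15. On simulated data (11570 genes, 200 of them changed 2-fold, coefficient of variation 0.1) the test of knockout in Jak2V617F recovered 195 (97.5%) and called 22 unchanged genes. The differences of the 10 genes were all under 2-fold, so this recovery does not describe them. Some items, an element shared by all groups among them, are not reported here.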

Additional observations from a re-analysis of the deposited data

How the results depend on the processing

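The lower level of Acadm after knockout in Jak2V617F was called under all 17 alternatives, with adjusted p from 0.00219 to 0.0337. The number of the 10 genes called after knockout in Jak2WT went from 0 to 4 with the same summed FPKM, to 4 with voom and to 1 with only the groups compared. It stayed at 0 with median ratio scaling. Jak2V617F against Jak2WT among GLUT1/3 WT clones went from 3 to 1 without a filter, and from 2 higher and 1 lower to 1 higher and 3 lower with the same summed FPKM and with voom. Of all 11818 genes, the same summed FPKM called 1223 higher and 2930 lower there, and voom 1397 and 2659. Among dKO clones the number went from 2 to 0 without a filter, to 1 with the same summed FPKM, to 3 with voom and to 0 with only the groups compared. Of all genes, the same summed FPKM called 977 higher and 1087 lower among dKO clones, and voom 1351 and 1336. Leaving out 1 library gave 0 to 1 genes for knockout in Jak2WT, 1 to 2 for knockout in Jak2V617F, 0 to 4 and 0 to 3 for Jak2V617F against Jak2WT among GLUT1/3 WT and dKO clones, and 0 to 1 for the interaction. Over all genes, knockout in Jak2WT called 1617, but 714 without a filter, 2615 with voom and, without clone 1 or 3, 110 and 155 (GLUT1/3 WT) and 214 and 281 (dKO). The interaction called 1256, but 346 without a filter, 1908 with voom and, without clone 1 or 3, 68 and 5 (Jak2WT GLUT1/3 WT), 63 and 534 (Jak2WT dKO) and 360 and 748 (Jak2V617F GLUT1/3 WT). Knockout in Jak2V617F called 3533, but 2131 without clone 1 of GLUT1/3 WT. Jak2V617F against Jak2WT among GLUT1/3 WT clones called 3577, but 1683 and 1583 without clone 1 or 3 of Jak2WT and 2313 without clone 1 of Jak2V617F. Among dKO clones it called 2019, but 620 and 821 without clone 1 or 3 of Jak2WT and 1132 without clone 1 of Jak2V617F. With only the groups compared, 1617 in place of 3533 genes were called for knockout in Jak2V617F and 1028 in place of 2019 for Jak2V617F among dKO clones. Clone numbers do not pair the samples, since clones were derived independently and deviations between groups correlated at -0.25 to 0.15. With the clone number as a replicate block the 10 genes gave 0, 1, 3, 2 and 0 calls in the order of the comparisons, the same numbers as without it.

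Signs reversed only for differences that were not called. With the same summed FPKM, median ratio scaling and voom, Acadl after knockout in Jak2V617F was at 0.072, 0.011 and 0.087, and the interaction of Hadha at 0.19, 0.039 and 0.16, with 0.0016 for a pseudocount of 0.1. Acaa2 among dKO clones was at 0.0070 with the same summed FPKM and 0.0029 with voom, and Eci1 after knockout in Jak2WT at -0.034 with the same summed FPKM. When 1 library was left out, values after knockout in Jak2V617F ranged from -0.033 to 0.39 for Cpt1a, -0.15 to 0.12 for Acadl, -0.14 to 0.14 for Acadvl and -0.064 to 0.16 for Acaa2. Among dKO clones they ranged from -0.0095 to 0.26 for Cpt1a, -0.14 to 0.018 for Cpt2, -0.15 to 0.038 for Acadl and -0.14 to 0.082 for Acaa2. Among GLUT1/3 WT clones they ranged from -0.22 to 0.075 for Cpt2 and -0.076 to 0.072 for Acadm, and the interaction from -0.14 to 0.16 for Cpt2 and -0.19 to 0.19 for Hadha. The cause of these shifts was not tested. Each of the 10 genes had at least 379 reads in every library, and each group had 2 clones.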
